A study of Homo sapiens with 4 samples.

Results

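ALCAM, the gene of the CD166 protein, and its relatives among the adhesion molecules of the immunoglobulin superfamily were examined in CD166+ and CD166- cells of 2 human pancreatic cancer cell lines. The genes were chosen by symbol: ALCAM, MCAM, BCAM, L1CAM, NECTIN2, ICAM1, ICAM3, CADM1 and F11R. Of these 9 genes, 8 had an annotated probe, and they held 13 probes among the probes of 20044 named genes. F11R, a junctional adhesion molecule, had no probe annotated to its symbol and was not analysed here.

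Adhesion molecules of this superfamily are membrane proteins whose outer part is built of immunoglobulin-like domains, by which cells bind to each other or to the matrix. ALCAM binds ALCAM on a neighbouring cell and CD6 on T cells, and it is found on many epithelial cells and carcinomas. MCAM and BCAM are its closest relatives in domain structure, L1CAM and CADM1 bind like molecules on nerve and epithelial cells, NECTIN2 joins cells at adherens junctions, and ICAM1 and ICAM3 are ligands of leukocyte integrins.

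The groups were SW1990 CD166+ against SW1990 CD166- cells and Panc-1 CD166+ against Panc-1 CD166- cells, with 1 Illumina bead array for each of the 4 populations. SW1990 comes from a splenic metastasis and Panc-1 from a primary ductal carcinoma. Cells were separated with an antibody to CD166 and magnetic beads, the labels name no drug or genetic change, and each line is a single source of cells. Replicates of a population were not among the arrays, so a difference within a line carries no test. The spread of log2 differences between probes of the same gene (root mean square SD) was 0.43 in SW1990 and 0.22 in Panc-1. That spread is technical and says nothing of the variation between cultures.

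Signals are given after background correction and quantile normalization over the 4 arrays. A probe counted as detected at a detection p under 0.01, and the lowest signal of a detected probe, the floor of an array, lay between 37.4 and 41.5. Detected probes numbered 15565 to 16716 of 47315. The SW1990 arrays did not pair by cell line. Pearson's r over 11644 genes was 0.989 between the Panc-1 arrays but 0.827 between the SW1990 arrays. SW1990 CD166- cells gave 0.874 with Panc-1 CD166+ and 0.872 with Panc-1 CD166- cells. SW1990 CD166+ cells gave 0.833 and 0.816 in the same order. Every difference within SW1990 therefore stands on a pair of arrays that differ widely. Over 2-fold differences were counted for 27.8% of the genes detected in SW1990, against 1.01% in Panc-1.

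Promoter sequences are shown for 3 genes: ALCAM, the gene of the sorted protein, NECTIN2, the gene with the largest difference in the other direction in SW1990, and ICAM1, whose signal separated the cell lines. Windows of 300 bases around the annotated start were taken from RefSeq (GRCh38.p14), which held a window for 7 of the 9 genes. Each is printed 5′ to 3′ on the gene's own strand, the plus strand for all 3, from chr3:105366659-105366958 for ALCAM, chr19:44846047-44846346 for NECTIN2 and chr19:10270870-10271169 for ICAM1. Capitals mark matches to GGGCGG (the GC box), TATAAA (the TATA box) and GGAAATTCC (an NF-kB site), searched on both strands, and no 2 matches overlap.
ALCAM promoter: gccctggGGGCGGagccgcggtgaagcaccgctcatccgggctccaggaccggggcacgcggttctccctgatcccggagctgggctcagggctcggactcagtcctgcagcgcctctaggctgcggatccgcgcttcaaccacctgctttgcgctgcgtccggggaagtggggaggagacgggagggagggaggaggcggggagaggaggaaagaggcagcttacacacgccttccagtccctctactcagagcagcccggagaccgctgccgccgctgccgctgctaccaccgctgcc
NECTIN2 promoter: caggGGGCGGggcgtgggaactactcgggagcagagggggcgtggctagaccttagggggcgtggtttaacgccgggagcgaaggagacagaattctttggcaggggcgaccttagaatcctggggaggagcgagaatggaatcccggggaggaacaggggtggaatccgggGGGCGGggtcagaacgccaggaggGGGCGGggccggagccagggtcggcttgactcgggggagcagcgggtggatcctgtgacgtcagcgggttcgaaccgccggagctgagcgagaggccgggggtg
ICAM1 promoter: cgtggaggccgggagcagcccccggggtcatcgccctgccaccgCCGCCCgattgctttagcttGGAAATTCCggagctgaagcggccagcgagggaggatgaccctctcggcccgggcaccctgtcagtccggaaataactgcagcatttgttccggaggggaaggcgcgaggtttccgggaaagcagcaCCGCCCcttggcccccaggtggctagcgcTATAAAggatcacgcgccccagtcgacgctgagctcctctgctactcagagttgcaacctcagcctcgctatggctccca

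The windows of ALCAM and NECTIN2 held a GC box, 1 match in ALCAM and 3 in NECTIN2, and neither TATAAA nor GGAAATTCC. The ICAM1 window held 2 matches to the GC box, 1 to TATAAA and 1 to GGAAATTCC. Among 35116 windows of the same length, 45.0% held the GC box, 11.5% held TATAAA and 0.461% held GGAAATTCC. All 3 windows were rich in G and C, with 70% in ALCAM, 68.3% in NECTIN2 and 64.7% in ICAM1 beside a median of 58.7%. They held 26, 26 and 24 CpG dinucleotides in the same order, and the median window held 14. These matches are letters only, and binding or methylation was not measured.

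ALCAM followed the sort in both lines. Its signal was 293 in SW1990 CD166+ and 47.3 in SW1990 CD166- cells, 6.20-fold higher in the sorted cells. In Panc-1 it was 234.5 in CD166+ and 44.3 in CD166- cells, 5.29-fold higher. Both CD166+ arrays were far above both CD166- arrays, and the CD166- signals lay just above the floors of 41.5 in SW1990 and 39.0 in Panc-1. As the cells were chosen by the ALCAM protein, these values check the CD166 labels and are not a finding. They do not check the labels of the cell lines. Fewer cells with the transcript and less transcript per cell cannot be told apart in such bulk samples. Counted from the top, ALCAM ranked 277 of 10638 genes in SW1990 and 6 of 10398 genes in Panc-1.

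**Figure D1:**
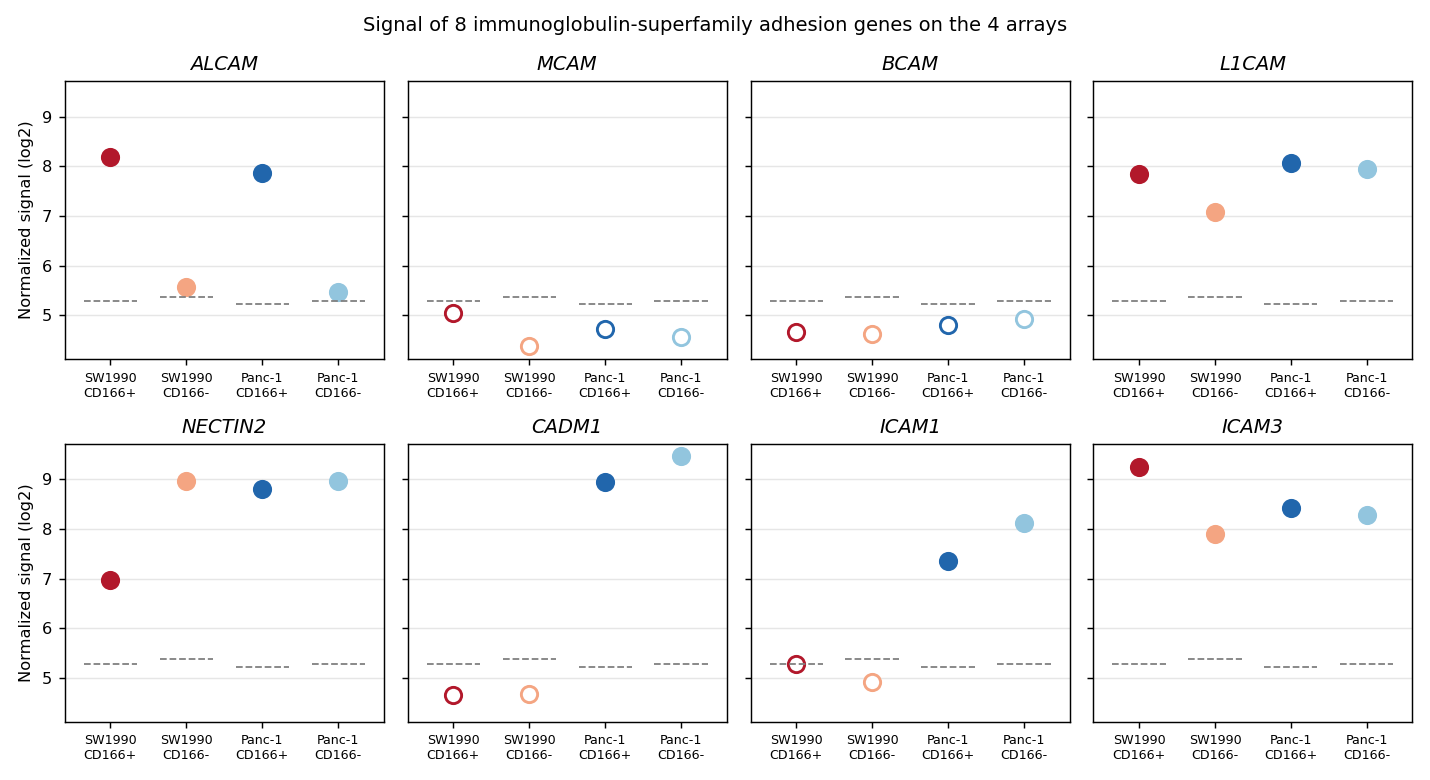
Normalized signal (log2) of the 8 genes with a probe, 1 panel per gene and 1 point per array. Filled points were detected at a detection p under 0.01, open points were not, and dashed lines mark the floor of each array. ALCAM was high in both CD166+ populations, CADM1 and ICAM1 were detected in Panc-1 only, and MCAM and BCAM were detected on no array.

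The closest relatives of ALCAM were not detected. MCAM (CD146), an adhesion molecule of endothelial cells and melanoma, gave 33.1 in SW1990 CD166+ and 20.7 in SW1990 CD166- cells, and 26.5 in Panc-1 CD166+ and 23.7 in Panc-1 CD166- cells. All 4 values were below the floors, with detection p-values between 0.0429 and 0.982. BCAM, a laminin receptor that carries the Lutheran blood group, was not detected by any of its 3 probes, which gave signals between 20.8 and 30.5 on the 4 arrays. No difference in MCAM or BCAM could be measured between CD166+ and CD166- cells of either line.

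L1CAM, a homophilic molecule of axons that also occurs in carcinomas, was detected on all 4 arrays. Its signal was 229 in SW1990 CD166+ and 136 in SW1990 CD166- cells, 1.68-fold higher. It was 266 in Panc-1 CD166+ and 245 in Panc-1 CD166- cells, 1.09-fold higher. The SW1990 CD166- array stood lowest and the other three lay close together. The log2 difference of 0.75 in SW1990 was larger than the spread between probes of a gene there (root mean square SD 0.43 over 1985 genes, median SD 0.20), and that of 0.12 in Panc-1 was smaller than the spread in that line (root mean square SD 0.22 over 2296 genes, median SD 0.13). Over all genes, the median absolute log2 difference was 0.58 in SW1990, where L1CAM ranked 2078 of 10638 from the top. A second L1CAM probe, annotated to another transcript, was not detected on any array. The mean over both probes gave log2 differences of 0.31 in SW1990 and -0.13 in Panc-1. The sign in Panc-1 thus changes when a probe below the floor is averaged in, which is not a second reading of the direction.

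NECTIN2 (CD112), a nectin that binds nectins of neighbouring cells and the CD226 receptor of lymphocytes, went the other way in SW1990. Its main probe gave 125 in SW1990 CD166+ and 498 in SW1990 CD166- cells, 3.99-fold higher in the CD166- cells. In Panc-1 it gave 447 in CD166+ and 499.96 in CD166- cells, 1.12-fold higher in the CD166- cells. The SW1990 CD166+ array stood alone at a low value, and the SW1990 CD166- array was level with the Panc-1 arrays. This probe is annotated to the short (alpha) transcript of NECTIN2, and 2 further probes to the long (delta) transcript. One delta probe gave 65.5 in SW1990 CD166+ and 188 in SW1990 CD166- cells, and 164 in Panc-1 CD166+ and 186 in Panc-1 CD166- cells. The other delta probe was detected in CD166- cells only, with 28.2 in SW1990 CD166+ and 72.6 in SW1990 CD166- cells, and 33.6 in Panc-1 CD166+ and 63.1 in Panc-1 CD166- cells. Against the floor of the CD166+ array, the CD166- signal was larger by at least 1.86-fold in SW1990 and by at least 1.69-fold in Panc-1. All 3 probes were thus lower in CD166+ cells of both lines, with measured log2 differences in SW1990 of -2.00 for the main probe and -1.52 for the brighter delta probe. In Panc-1 these differences were -0.16 and -0.18. The mean over the 3 probes there was -0.42, with the dimmer delta probe, undetected in CD166+ cells, entering at a measured -0.91.

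**Figure D2:**
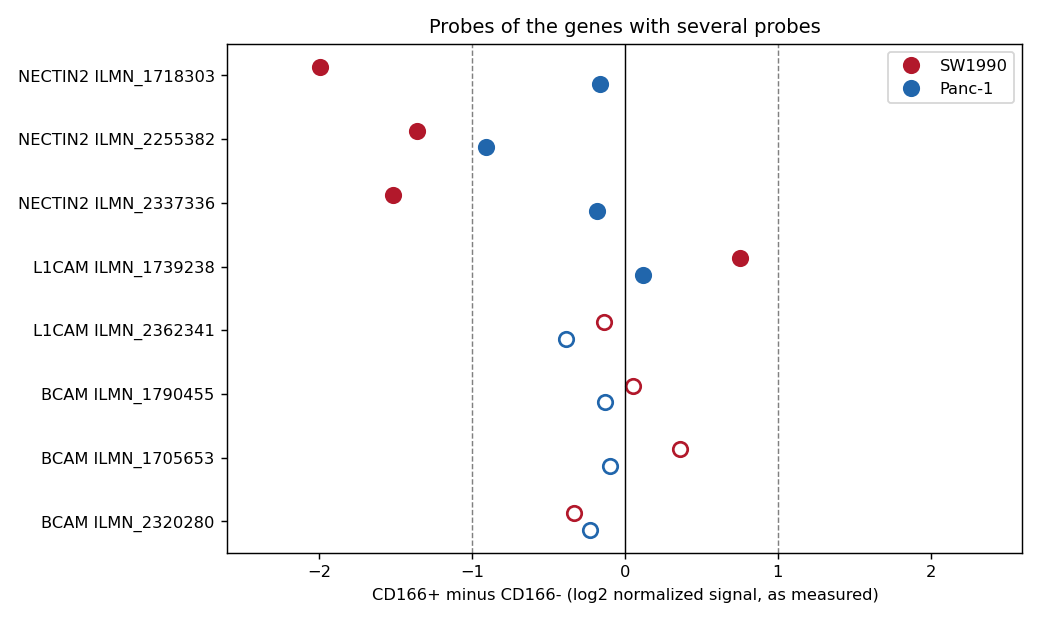
Log2 difference between CD166+ and CD166- cells for each probe of NECTIN2, L1CAM and BCAM, red in SW1990 and blue in Panc-1. Filled points were detected on at least 1 array of the line, and dashed lines mark 2-fold. The 3 NECTIN2 probes lie left of 0 in both lines, and the main L1CAM probe is the only one of its 2 probes that was detected.

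CADM1, a nectin-like molecule that holds epithelial cells together and is often silenced in carcinomas, was detected in Panc-1 only. It was not detected in SW1990, with 25.3 in CD166+ and 25.7 in CD166- cells. In Panc-1 it gave 496 in CD166+ and 706 in CD166- cells, 1.42-fold higher in the CD166- cells. The log2 difference in Panc-1 was -0.51, and CADM1 has a single probe.

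ICAM1 (CD54), the cytokine-induced ligand of the integrins LFA-1 and Mac-1, was likewise detected in Panc-1 only. In SW1990 it gave 38.7 in CD166+ and 30.3 in CD166- cells, neither detected, although the CD166+ detection p of 0.0104 lay at the limit. In Panc-1 it gave 164 in CD166+ and 279 in CD166- cells, 1.70-fold higher in the CD166- cells. Its log2 difference of -0.77 in Panc-1 was the largest among the members there after that of ALCAM, and opposite to it in sign. ICAM1 is the gene whose promoter window above holds TATAAA and GGAAATTCC.

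ICAM3 (CD50), an integrin ligand known from resting leukocytes, was detected on all 4 arrays. It gave 612 in SW1990 CD166+ and 239.5 in SW1990 CD166- cells, 2.56-fold higher. In Panc-1 it gave 345 in CD166+ and 312 in CD166- cells, 1.11-fold higher. The SW1990 CD166+ array was the highest and the other three lay below it. The log2 difference was 1.35 in SW1990 and 0.14 in Panc-1, and ICAM3 has a single probe. ICAM3 ranked 921 from the top in SW1990.

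In SW1990, 3 of the 4 detected members differed by over 2-fold, ALCAM and ICAM3 higher and NECTIN2 lower in CD166+ cells. Among all 10783 genes detected there, 13.6% were higher and 14.2% lower by that much in CD166+ cells. In Panc-1, 1 of 6 detected members, ALCAM, differed by over 2-fold, beside 0.598% of 10531 genes that were higher and 0.408% that were lower in CD166+ cells. ALCAM was thus the one member past 2-fold in both lines, and the sort had selected it. L1CAM and ICAM3 were higher and NECTIN2 was lower in CD166+ cells of both lines by the main probe, with log2 differences in Panc-1 of 0.12, 0.14 and -0.16. Over all probes of the gene, with undetected signals entering as measured, the Panc-1 difference was -0.13 for L1CAM and -0.42 for NECTIN2. ICAM1 and CADM1 were lower in Panc-1 CD166+ than in Panc-1 CD166- cells and not measurable in SW1990.

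**Figure D3:**
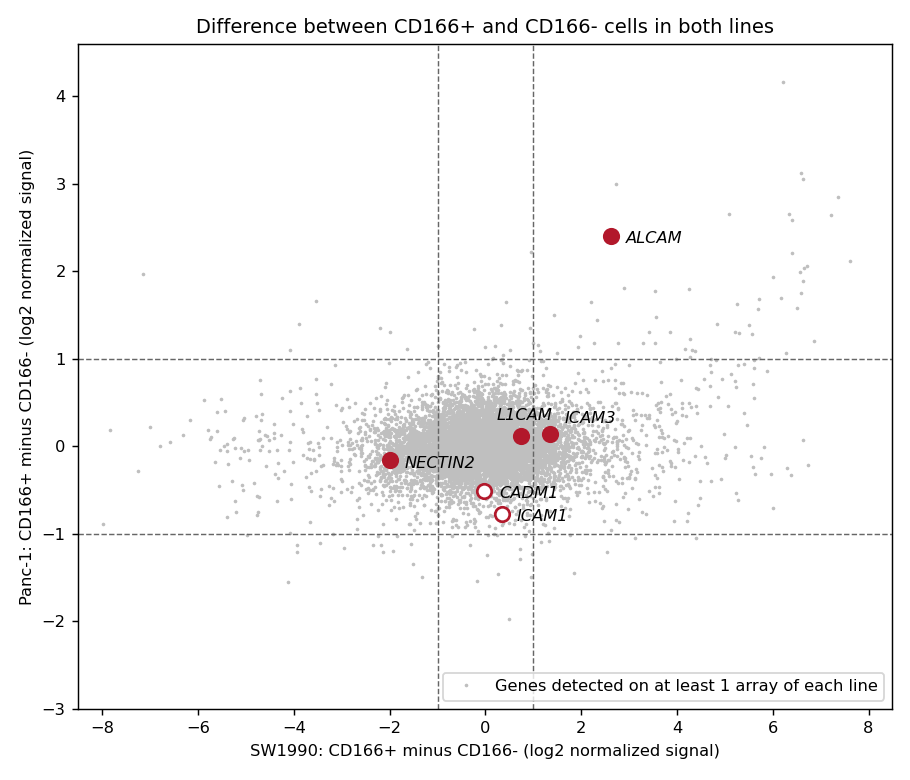
Log2 difference between CD166+ and CD166- cells in SW1990 (x axis) and in Panc-1 (y axis). Grey points are genes, red points are the members, open where SW1990 did not detect them, and dashed lines mark 2-fold. ALCAM lies in the upper right at 2.63 and 2.40, and NECTIN2 and ICAM3 lie outside 2-fold in SW1990 only.

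Across both lines, the difference was fitted with limma with the cell line as a block, which leaves 1 residual degree of freedom. No gene of 10364 reached an adjusted p under 0.05 (0%), and 161 (1.55%) had an unadjusted p under 0.05, among them 1 of the 6 members tested, ALCAM. ALCAM differed by a log2 of 2.52 ± 0.37 (moderated SE, n = 2 pairs), with a limma adjusted p of 0.922. Each SE given here draws on the variance of all genes fitted, not on the 2 pairs of that gene alone. NECTIN2 differed by -1.08 ± 0.56, ICAM3 by 0.75 ± 0.46 and L1CAM by 0.44 ± 0.39. CADM1 differed by -0.26 ± 0.38 and ICAM1 by -0.21 ± 0.45, with the undetected SW1990 signals entering as measured. The limma adjusted p was 0.922 for each of these members except ICAM1, at 0.955. An exact permutation test of 2 pairs cannot go below a two-sided p of 0.5.

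Between the lines and within CD166+ cells, 3 of 6 detected members were over 2-fold lower in SW1990 than in Panc-1, beside 14.2% of 11122 genes, and none was over 2-fold higher, beside 12.9% (27.1% in either direction). CADM1 was at least 12.7-fold, ICAM1 at least 4.19-fold and NECTIN2 3.58-fold lower in SW1990. In CD166- cells, 2 of 6 were over 2-fold lower in SW1990, beside 12.2% of 10692 genes, and none was over 2-fold higher, beside 10.6% (22.8% in either direction). These were CADM1, by at least 17.0-fold, and ICAM1, by at least 6.73-fold. NECTIN2 was at 498 in SW1990 and 499.96 in Panc-1 CD166- cells, a log2 difference of -0.0046. ICAM3 was 1.78-fold higher in SW1990 among CD166+ cells and 1.30-fold lower in SW1990 among CD166- cells. L1CAM was 1.16-fold lower in SW1990 among CD166+ and 1.80-fold lower among CD166- cells. ALCAM was 1.25-fold higher in SW1990 among CD166+ and 1.07-fold higher among CD166- cells. CADM1 and ICAM1 were detected on both Panc-1 arrays and on neither SW1990 array, whereas NECTIN2 set only the SW1990 CD166+ array apart. The SW1990 CD166- array resembled those of Panc-1 over all genes, and the reason was not tested.

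The genes whose pattern over the 4 arrays lay nearest to that of ALCAM, by the distance between log2 signals centred per gene among 10364 genes, were KLHL13 (distance 0.71), PHLDA3 (1.06), GABRE (1.12), SLFN11 (1.14) and PLEK2 (1.15). KLHL13, an adaptor of a ubiquitin ligase, gave 118 in SW1990 CD166+ and 23.4 in SW1990 CD166- cells, and 72.6 in Panc-1 CD166+ and 26.7 in Panc-1 CD166- cells. Both of its CD166+ arrays were detected and both of its CD166- arrays were not, and its Panc-1 difference was smaller than that of ALCAM. None of the members was among these 5 genes. Only 4 other genes matched or passed the ALCAM difference in both lines, AKR1C3, GAGE12G, KRT7 and RASIP1, which were named after their values were seen. None of the 4 was detected in Panc-1 CD166- cells, so their Panc-1 folds are lower limits. Their signals were 1991 to 5283 in SW1990 CD166+ and 207 to 441 in Panc-1 CD166+ cells. Those of ALCAM were 293 and 234.5 in the same order.

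Some genes strong in SW1990 CD166+ cells gave a low signal on the Panc-1 CD166+ array. This was read from background-corrected signals before quantile normalization, for 17 genes with at least 1000 in SW1990 CD166+ cells and a detection p of 0.05 or more in both CD166- populations. For each gene the excess of the Panc-1 CD166+ array over that of Panc-1 CD166- was divided by the SW1990 CD166+ signal, and the median share was 2.23% (quartiles 1.40% and 2.53%). AKR1C3, GAGE12G, KRT7 and RASIP1 were not among the 17, as each had a detection p under 0.05 in SW1990 CD166- cells. For ALCAM, the SW1990 CD166+ signal read in this way was 142% of the Panc-1 CD166+ signal. Whether SW1990 RNA reached the Panc-1 CD166+ array was not tested. With the median share of 2.23% subtracted and the arrays normalized again, the Panc-1 difference of ALCAM was 5.29-fold. ICAM1 was 1.66-fold and CADM1 1.39-fold higher in CD166- cells, beside 1.70-fold and 1.42-fold before. Subtraction from the CD166+ array cannot by itself shrink these 2 differences, so the change reflects the repeated normalization.

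Of 45 other adhesion genes of the superfamily, 43 had a probe and 22 were detected on some array. Each is given by its brightest probe, and further probes, as for MPZL2 and PVR, were not compared. In SW1990, 3 of 19 detected genes were higher by over 2-fold in the CD166+ population and 3 were lower by that much. Among all genes, 13.6% were higher and 14.2% lower. The other 13 were not counted past 2-fold, some of them with folds that are only lower limits. The median log2 difference was 0.04. MPZL2, an epithelial adhesion molecule, gave 1040 in SW1990 CD166+ and 29.7 in SW1990 CD166- cells, at least 25.0-fold higher. CXADR, the virus receptor of tight junctions, gave 308 in SW1990 CD166+ and 53.8 in SW1990 CD166- cells, 5.72-fold higher, and NCAM2 was at least 3.31-fold higher. JAM3, a junctional relative of the unmeasured F11R, gave 22.0 in SW1990 CD166+ and 764 in SW1990 CD166- cells, at least 19.6-fold lower. In Panc-1 JAM3 gave 920 in CD166+ and 1010 in CD166- cells, so that SW1990 CD166+ was again the array apart, as for NECTIN2. PVR, the nectin-like poliovirus receptor that binds NECTIN2's receptor CD226, gave 209.7 in SW1990 CD166+ and 652 in SW1990 CD166- cells, 3.11-fold lower. In Panc-1 PVR gave 305 in CD166+ and 263 in CD166- cells. ICAM5 was at least 5.09-fold lower in SW1990 CD166+ than in SW1990 CD166- cells. In Panc-1, none of 16 detected genes passed 2-fold, beside 0.598% of all genes that were higher and 0.408% that were lower. The median of these 16 was -0.07, with a range of -0.93 to 0.58. None of the 4 carcinoembryonic antigen genes listed was detected.

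Of 44 partners of these molecules, 41 had a probe and 29 were detected. They too are given by the brightest probe, and further probes, as for ITGB1 and LGALS8, were not compared. In SW1990, 2 of 26 detected partners were higher by over 2-fold in the CD166+ population and 8 were lower by that much. Among all genes, 13.6% were higher and 14.2% lower. The other 16 partners were not counted past 2-fold, some of them with folds that are only lower limits. The median log2 difference of the partners was -0.20. The proteases ADAM10 and ADAM17, which shed ALCAM and L1CAM from the cell surface, were both lower. ADAM10 gave 71.3 in SW1990 CD166+ and 188 in SW1990 CD166- cells, 2.64-fold lower, and ADAM17 gave 149 in SW1990 CD166+ and 338 in SW1990 CD166- cells, 2.27-fold lower. In Panc-1 ADAM10 gave 99.7 in CD166+ and 109 in CD166- cells. The integrin chain ITGB1, a subunit of receptors for L1CAM, gave 2493 in SW1990 CD166+ and 7978 in SW1990 CD166- cells, 3.20-fold lower, and ITGAV was 2.06-fold lower. EZR (ezrin), which ties adhesion molecules to actin, was 2.61-fold lower, and ANK1 (ankyrin) at least 7.30-fold lower. LGALS8 (galectin-8), a sugar-binding ligand of ALCAM, was at least 4.94-fold lower, and the sialoglycoprotein gene SPN 2.82-fold lower. WNT5A, a secreted signal that polarises adhesion molecules in the membrane, gave 196 in SW1990 CD166+ and 22.2 in SW1990 CD166- cells, at least 4.73-fold higher. LGALS3 (galectin-3) was 2.49-fold higher in SW1990 CD166+ cells. In Panc-1, none of 26 detected partners passed 2-fold, beside 0.598% of all genes that were higher and 0.408% that were lower. The median of the partners there was -0.09, with a range of -0.83 for LGALS8 to 0.60. The median over all genes, taken in the same way, was -0.02 in SW1990 and -0.0044 in Panc-1. By limma with the block, 0 of 18 other adhesion genes and 0 of 27 partners had an adjusted p under 0.05. In each list, 1 gene had an unadjusted limma p under 0.05. Over all 10364 genes fitted, the shares were 0% and 1.55%.

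**Figure D4:**
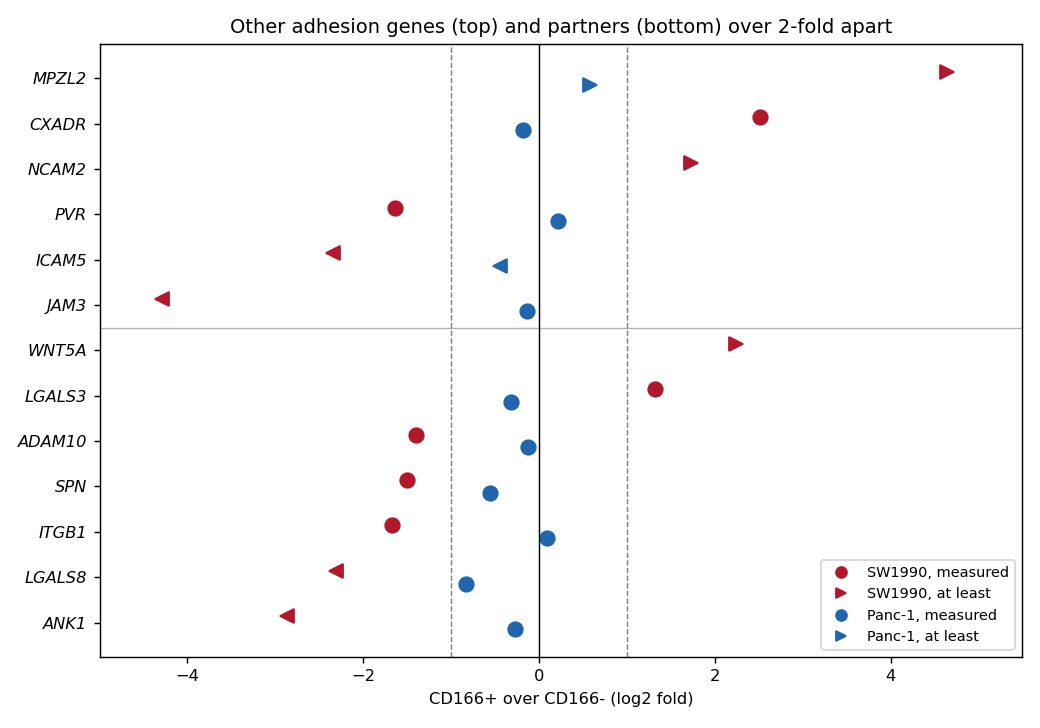
Log2 fold between CD166+ and CD166- cells for the other adhesion genes (above the line) and up to 5 partners per direction (below the line) that differed by over 2-fold in SW1990. Circles are measured on both arrays, triangles are lower limits because 1 array did not detect the gene, red is SW1990 and blue is Panc-1. All Panc-1 symbols lie inside the dashed 2-fold lines, and NCAM2 and WNT5A, undetected in Panc-1, have none.

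Markers of cell types were read beside these values. Of 6 epithelial markers, 5 were detected, with summed signals of 8897 in SW1990 CD166+, 5786 in SW1990 CD166-, 13554 in Panc-1 CD166+ and 16891 in Panc-1 CD166- cells, and CDH1 was not detected on any array. EPCAM and KRT7 were higher in CD166+ cells of both lines, with log2 differences of 1.87 in SW1990 and 0.72 in Panc-1 for EPCAM, and of 5.08 in SW1990 and at least 2.45 in Panc-1 for KRT7. KRT18 and KRT19 were higher in SW1990 CD166+ cells, by 1.22 and 1.33, and lower in Panc-1 CD166+ cells, at -0.46 and -0.11. KRT8 was lower in CD166+ cells of both lines, at -0.14 in SW1990 and -0.76 in Panc-1. Of 6 fibroblast markers, 3 were detected in SW1990 CD166+ and 1 in SW1990 CD166- cells, with sums of 762 in CD166+ and 2282 in CD166- cells. COL1A2 gave 24.3 in SW1990 CD166+ and 2148 in SW1990 CD166- cells, most of the CD166- sum. The other 3 markers detected in SW1990 went the other way. COL1A1 gave 218 in SW1990 CD166+ and 24.9 in SW1990 CD166- cells, ACTA2 328 and 26.7, and PDGFRB 131 and 23.7 in the same order. DCN and LUM were undetected. In Panc-1 the fibroblast sums were 587 in CD166+ and 510 in CD166- cells. Of 5 leukocyte markers with a probe, ITGB2 and CD14 were detected on all 4 arrays and PTPRC, CD3E and LYZ on none, with sums between 321 and 372. ITGB2, the integrin chain that binds ICAM1 and ICAM3, made up most of each sum, with 237 in SW1990 CD166+ and 176 in SW1990 CD166- cells, and 238 in Panc-1 CD166+ and 240 in Panc-1 CD166- cells. Of 6 endothelial markers, 1 was detected in SW1990 CD166+, 2 in SW1990 CD166- and 0 in Panc-1 cells. Of 5 neural markers with a probe, 1 was detected in SW1990 CD166+ and 2 on each other array, with sums of 393 in SW1990 CD166+, 1023 in SW1990 CD166-, 1877 in Panc-1 CD166+ and 1756 in Panc-1 CD166- cells, of which MBP gave 297 in SW1990 CD166+, 896 in SW1990 CD166-, 1745 in Panc-1 CD166+ and 1625 in Panc-1 CD166- cells. The part of these markers in the SW1990 differences of NECTIN2, ICAM3, L1CAM and their partners was not tested.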

How the data were processed

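Total RNA of 4 sorted cell populations was measured on HumanHT-12 v4 bead arrays. The authors used BeadStudio 3.2.3. They deposited mean bead intensity per probe, not normalized, together with a detection p-value, and a second table of intensity values scaled by 1 factor per array. The intensities were corrected and quantile-normalized with neqc in limma 3.58.1 (R 4.3.3, offset 16). One gene was annotated for 30111 probes, several for 8 and none for 17196. Symbols were updated by Entrez number to RefSeq (GRCh38.p14), which lacked 27 of the numbers. For each gene, the brightest probe on average was taken, and further probes are given for the members only.

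Within a line, a gene was counted at a 2-fold difference when the brighter array detected it (detection p under 0.01). Undetected signals were replaced by the array's floor (the dimmest detected probe) unless they were above it, which gives "at least" folds. Across lines, limma (lmFit, eBayes) was run on genes detected on at least 2 arrays, with the cell line, which pairs the arrays, as a block and Benjamini-Hochberg adjustment. Same-line arrays correlated at 0.989 in Panc-1 and 0.827 in SW1990. The limma step was tested on simulated data, where recovery was required only for differences larger than that of any member. With 1 array per population, p-values and SE rest on the spread between the lines, moderated by eBayes with the variance of all genes fitted. The number of arrays limits the precision.

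The members, the lists of other adhesion genes, partners and markers, and the tests were chosen with earlier results of these data known. Named from the lists were all members, up to 5 genes per list, line and direction with the largest fold over 2-fold, markers, and the 5 genes nearest to ALCAM. EZR, ADAM17 and ITGAV were added after their values were seen. Alternatives were no background correction, median scaling, the scaled table, the mean over probes, a detection p under 0.05, undetected sides as measured, a 1.5-fold threshold, subtraction from Panc-1 CD166+ of the share of SW1990 CD166+ signal seen there, no block, the methods' t-test, no filter and the omission of each line. Promoter windows came from RefSeq.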

Additional observations from a re-analysis of the deposited data

Results flagged for a closer look

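The lists held 9 members, 45 other adhesion genes, 44 partners and 30 markers. Of these, 6 had differences of opposite sign in the lines, each larger than the root mean square SD between probes of a gene. That SD is technical, and the share of all genes that meet this rule was not counted. The median absolute log2 difference over all genes was 0.58 in SW1990 and 0.16 in Panc-1. LGALS3, a partner of the adhesion molecules, was one of the 6. Its log2 difference was 1.32 in SW1990, where CD166+ cells gave 323 and CD166- cells 129.7, and -0.32 in Panc-1, where CD166+ cells gave 128 and CD166- cells 160. The other partners were CASK, at 0.78 in SW1990 and -0.48 in Panc-1, LAMA5, at 0.85 and -0.26, and ACTN1, at -0.92 and 0.29 in the same order. ESAM, an adhesion molecule of the superfamily, was at 0.75 in SW1990 and -0.40 in Panc-1, and the epithelial marker KRT18 at 1.22 in SW1990 and -0.46 in Panc-1. Whether the lines differ was not tested for any of them. None of the members was among these genes, and populations with 1 array allow no test for outlying samples.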

How the results depend on the processing

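With 1 array per population, no setting can show how a member varies between cultures. The count of members over 2-fold in Panc-1 was 2 at a 1.5-fold threshold, ALCAM higher and ICAM1 lower in CD166+ cells, and 1 under the other settings run. In SW1990 it was 4 at 1.5-fold, where L1CAM was added, and 3 otherwise. The ALCAM log2 difference was 1.78 in SW1990 and 1.56 in Panc-1 without background correction, and 1.63 and 1.52 in the scaled table, where its dim CD166- signals keep their background. With the mean over probes, undetected signals included, L1CAM was at 0.31 in SW1990 and -0.13 in Panc-1, and NECTIN2 at -0.42 in Panc-1. The scaled table moved the median of all genes detected on both arrays of a line by -0.09 in SW1990 and -0.03 in Panc-1. Across both lines, 0 members were called in every setting, also with no replicate block, and the adjusted p of ALCAM was between 0.898 and 0.999. Genes at an unadjusted p under 0.05 numbered 161 with the block, 55 without it, 132 by the methods' t-test, 220 without the filter, 100 without background correction and 343 in the scaled table. The ICAM1 difference was -0.77 without SW1990 and 0.35 without Panc-1, where its SW1990 signals are undetected. Subtracting the upper quartile of the share of SW1990 CD166+ signal seen on the Panc-1 CD166+ array, an alternative chosen after seeing the data, left ALCAM at 5.29-fold in Panc-1.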
